A study of Mus musculus with 18 samples.

Results

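Glucose enters a fibroblast through a transporter and is broken down to pyruvate by glycolysis. The 10 genes described here are Slc2a1, which encodes the glucose transporter GLUT1, Hk1, Hk2, Pfkl, Pfkp, Aldoa, Pgk1, Pkm, Ldha and Pdk1. They were chosen by name as the uptake step, several of the enzymes that follow it and the kinase that holds pyruvate back from the mitochondrion. By gene symbol they matched 11 of the 51499 loci of the deposited table, because Aldoa is listed at 2 loci.

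The cells were mouse embryonic fibroblasts labelled Ago2+/+ or Ago2-/-, that is, with or without AGO2, the Argonaute protein that slices RNA in RNA interference. Each genotype was treated with the solvent DMSO, with tunicamycin, an inhibitor of the first step of N-glycan assembly in the endoplasmic reticulum (ER), or with 500 nM of thapsigargin, which blocks the calcium pump of the ER. The experiment asked how the transcriptome responds to ER stress with and without AGO2. The 6 groups had 3 libraries each, and the deposited table gives 1 FPKM per group, a level that accounts for the length of the transcript and for how many fragments were mapped. Such a value carries no spread between replicates and the depth behind it is unknown, so no difference below has a replicate check, no test was run, and neighbours in an order of levels cannot be judged against error. How many cell lines or clones each genotype comprised is not stated in the sources used here.

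The labels have to be read with care. Ago2 stood at 22.1 FPKM in cells labelled Ago2+/+ DMSO but at 5.75 in that labelled Ago2+/+ tunicamycin and at 17.0 in Ago2+/+ thapsigargin, and with the label Ago2-/- it read 5.61, 15.5 and 20.7 (DMSO, tunicamycin, thapsigargin). Xist was 46.6 and 33.5 FPKM in cells labelled Ago2+/+ DMSO and Ago2-/- thapsigargin and at most 0.0574 in the others, while the Y-linked Ddx3y was 23.3 and 24.7 in Ago2+/+ thapsigargin and Ago2-/- tunicamycin and listed at 0 elsewhere. For 4 libraries the genotype labels conflict, and they cannot be separated from the pooled values. Each group is therefore named by its label only, and every direction for genotype or stressor rests on those labels. Of 9 fibroblast markers, 7 or 8 reached 1 FPKM in each group, with Vim between 952 and 2634, although Thy1 was listed at 0 in all 6. Vim had the narrowest range of the markers above 0. Others differed widely between groups, with Col1a1 at 5.97 to 651 FPKM, Col1a2 at 23.7 to 577 and Fn1 at 46.4 to 600. Markers of epithelium, blood and endothelium were below 1 FPKM in every group except Cd68, at 1.13 to 1.82.

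In glycolysis, hexokinases trap glucose as its phosphate, phosphofructokinase commits the sugar to breakdown, aldolase splits it, and phosphoglycerate kinase and pyruvate kinase recover ATP. Lactate dehydrogenase turns pyruvate into lactate and renews the NAD+ that the pathway needs, whereas pyruvate dehydrogenase kinases switch off the complex that would feed pyruvate to the citric acid cycle. Many of these genes are known targets of the hypoxia-inducible factor HIF-1, and proliferating fibroblasts in culture run glycolysis at a high rate even with oxygen present.

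All 10 genes were well above the level of 1 FPKM used as a filter. Their levels ranged from a mean over the 6 groups of 20.6 FPKM for Pdk1 to 1172 FPKM for Pkm, and together they made up between 0.398% (labelled Ago2-/- tunicamycin) and 0.852% (labelled Ago2-/- thapsigargin) of all FPKM. The highest group was at least 2 times the lowest for 6 of the 10 genes, against 38% of the 11929 loci whose mean reached 1 FPKM. For none of the 10 was it at least 4 times the lowest, as it was for 16.2% of those loci. The median span from lowest to highest group was 1.13 on the log2 scale for these genes and 0.80 over all loci. All 10 transcripts were thus present in every group, over a moderate range of levels.

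**Figure D1:**
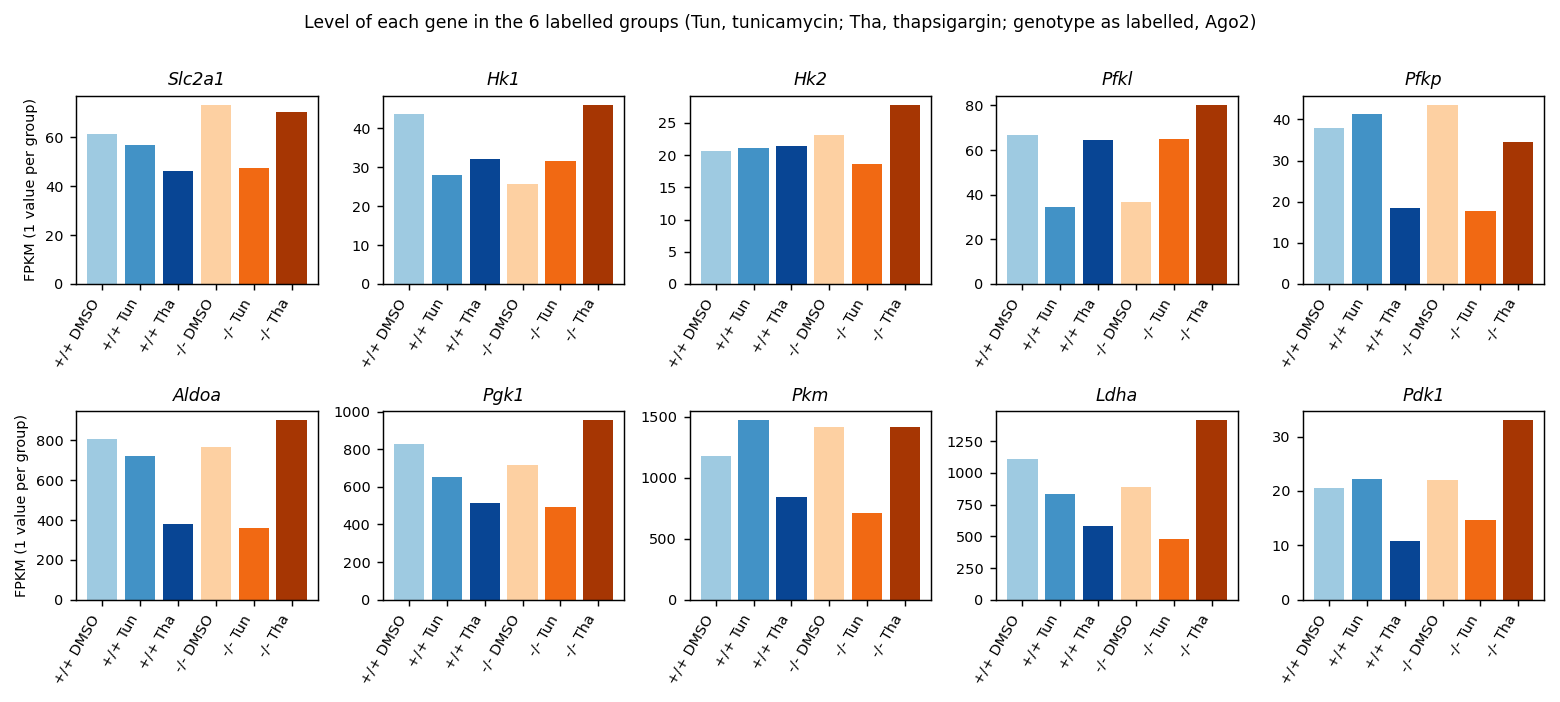
FPKM of each of the 10 genes (1 bar per labelled group, 1 pooled value of 3 libraries per bar, so no error bars; each panel has its own linear axis from 0). Aldoa, Pgk1, Pkm, Ldha and Pfkp are lowest in cells labelled Ago2+/+ thapsigargin and Ago2-/- tunicamycin, whereas Pfkl is lowest in those labelled Ago2+/+ tunicamycin and Ago2-/- DMSO.

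Slc2a1 encodes GLUT1, the main glucose transporter of fibroblasts (chr4:119108711-119138801, GRCm38, as all positions here). Its level was 61.3 FPKM in cells labelled Ago2+/+ DMSO, 56.8 with tunicamycin and 46.4 with thapsigargin, and the label Ago2-/- held 73.5 with DMSO, 47.7 with tunicamycin and 70.2 with thapsigargin. The highest value was 1.58 times the lowest, one of the narrower ranges among the 10 genes. GLUT1 also made up most of the glucose transporter transcripts, with 68.1% to 87.6% of the FPKM summed over the 11 transporters listed. The neuronal-type transporter Slc2a3 (GLUT3) reached no more than 0.452 FPKM in any group.

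The smallest shares of Slc2a1 in that sum came with a second transporter. Slc2a10, which encodes GLUT10, was 7.05 FPKM in cells labelled Ago2+/+ thapsigargin and 8.15 in Ago2-/- tunicamycin, and between 0.0045 and 0.112 in the other groups. Its share of the transporter sum was 10.9% and 11.6% in the former groups and at most 0.166% elsewhere. These are the groups with the Y-linked transcripts.

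Hk1 encodes the hexokinase found in nearly all tissues (chr10:62268855-62379908). It was 43.7 FPKM in cells labelled Ago2+/+ DMSO, 28.0 under tunicamycin and 32.1 under thapsigargin, against 25.6, 31.6 and 46.1 in those labelled Ago2-/- under DMSO, tunicamycin and thapsigargin. Its lowest levels were therefore in the labelled Ago2-/- DMSO and Ago2+/+ tunicamycin groups.

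Hk2, the insulin- and hypoxia-responsive hexokinase (chr6:82725025-82774454), had the narrowest range of the 10 genes. In the same order of treatments it was 20.6, 21.1 and 21.5 FPKM in cells labelled Ago2+/+, and 23.1, 18.6 and 27.8 in those labelled Ago2-/-. The 3 levels labelled Ago2+/+ lay within 0.06 of each other on the log2 scale. Hk1 supplied 52.4% to 67.9% of the hexokinase FPKM and Hk2 nearly all of the rest. Hk3 was listed at 0 in all groups.

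Phosphofructokinase showed the clearest change of make-up. Pfkl, the liver-type subunit (chr10:77986947-78010083), was 66.9, 34.6 and 64.4 FPKM (DMSO, then tunicamycin, then thapsigargin) in cells labelled Ago2+/+. In those labelled Ago2-/- it was 36.6, 65.1 and 80.4. The groups labelled Ago2+/+ tunicamycin and Ago2-/- DMSO thus held roughly equal, low levels, and the other 4 were all at 64.4 or above.

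Pfkp, the platelet-type subunit (chr13:6548149-6648777), divided the groups differently. It was 37.9, 41.3 and 18.3 FPKM in cells labelled Ago2+/+ and 43.6, 17.7 and 34.5 in those labelled Ago2-/-, again under DMSO, tunicamycin and thapsigargin. Its low levels were in Ago2+/+ thapsigargin and Ago2-/- tunicamycin. Transcripts of Pfkp share 748 bases with those of the neighbouring gene Pitrm1, which was between 59.5 and 83.4 FPKM, so fragments from that stretch may be assigned to either gene.

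The ratio of Pfkl to Pfkp was 0.84 in both groups with low Pfkl, 3.51 and 3.69 in the groups with low Pfkp, and 1.76 and 2.33 in cells labelled Ago2+/+ DMSO and Ago2-/- thapsigargin. The muscle-type subunit Pfkm varied little, from 19.3 to 29.2 FPKM, and made up 14.9% to 21.8% of the sum. The summed FPKM of all 3 subunits ranged from 96.9 to 135. The summed level thus varied less than the ratio of its main subunits.

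**Figure D2:**
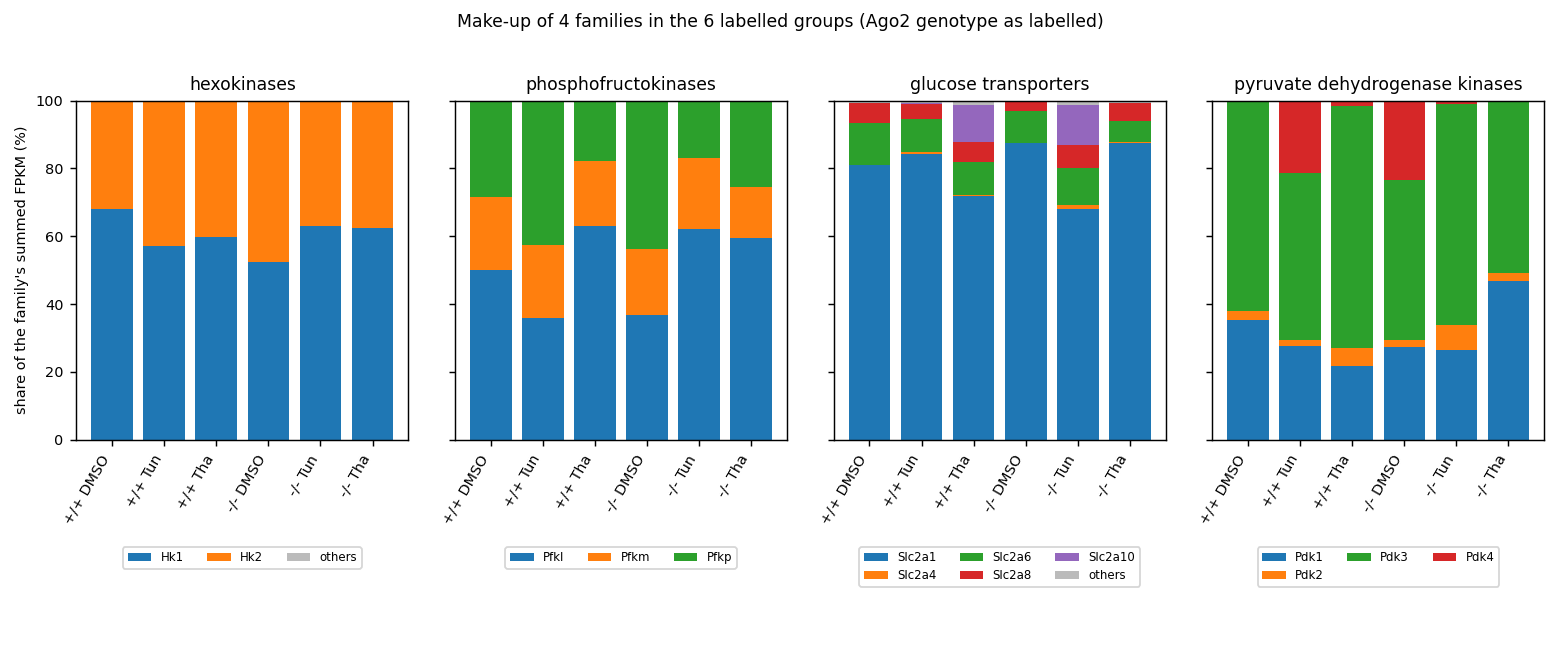
Share of each gene in the summed FPKM of its family (stacked bars to 100%, 1 bar per labelled group, no replicates; genes under 1% in all groups are joined as others). Pfkl made up 35.8% of phosphofructokinase in cells labelled Ago2+/+ tunicamycin and 36.8% in Ago2-/- DMSO, and Pdk4 appears in the same groups at 21.5% and 23.5% of its family.

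Aldoa, the aldolase of muscle and most dividing cells, was 808 FPKM in cells labelled Ago2+/+ DMSO, 722 with tunicamycin and 381 with thapsigargin. With the label Ago2-/- the DMSO level was 767, that with tunicamycin 362 and that with thapsigargin 900.3. The groups labelled Ago2+/+ thapsigargin and Ago2-/- tunicamycin lay close together and well below the other 4. Aldoa made up at least 99.7% of aldolase FPKM in every group, with the brain-type Aldoc at no more than 1.05 FPKM. A second locus carrying the symbol Aldoa, with another Ensembl identifier and the same listed position (chr7:126795234-126830219), was between 1.26 and 3.56 FPKM and is not counted among the 10 genes below.

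Pgk1, an X-linked gene for phosphoglycerate kinase (chrX:106187100-106203699), was 828, 653 and 514 FPKM (DMSO, then tunicamycin, then thapsigargin) in cells labelled Ago2+/+. It was 714, 494 and 953 in those labelled Ago2-/-. Its highest levels were in the groups with Xist transcripts, labelled Ago2-/- thapsigargin and Ago2+/+ DMSO.

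Pkm encodes the pyruvate kinase of muscle and dividing cells (chr9:59656368-59679375). It was the most abundant of the 10 transcripts per length in 5 of the groups and was level with Ldha in that labelled Ago2-/- thapsigargin. Its levels were 1178, 1470 and 846 FPKM in cells labelled Ago2+/+, and 1417, 709 and 1412 in those labelled Ago2-/-. The locus also carries a second Ensembl gene. A near-identical processed pseudogene, Gm6560, was listed at 13.8 to 29.6 FPKM, and the division of fragments between it and Pkm is uncertain. The table does not separate the M1 and M2 splice forms.

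Ldha, the lactate dehydrogenase subunit of glycolytic cells (chr7:46841475-46855627), had the second-widest range. Under DMSO, tunicamycin and thapsigargin it was 1111, 836 and 583 FPKM in cells labelled Ago2+/+, and 889, 479 and 1414 in those labelled Ago2-/-. The highest value was 2.95 times the lowest. Of 3 near copies of its transcript (at least 95% identity over at least 300 bases), none was above 5.27 FPKM. Ldha-ps2, which is named below and is not among these 3, was at 2.13 to 6.85 FPKM.

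Ldhb, the subunit typical of heart and oxidative tissue, was listed at 0 in cells labelled Ago2+/+ DMSO and Ago2-/- thapsigargin. It was between 13.8 and 22.2 FPKM in the other 4. Because a listed 0 can be a failed estimate, no fold is given. Where Ldhb was present, Ldha still made up 95.6% to 98.3% of lactate dehydrogenase FPKM.

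Pdk1 encodes a kinase that inactivates pyruvate dehydrogenase (chr2:71873224-71903858), and it had the widest range of the 10 genes. It was 20.6, 22.3 and 10.8 FPKM (DMSO, then tunicamycin, then thapsigargin) in cells labelled Ago2+/+, and 22.0, 14.7 and 33.0 in those labelled Ago2-/-. The level in the labelled Ago2-/- thapsigargin group was 3.05 times that in the labelled Ago2+/+ thapsigargin group, its lowest.

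The other kinases of the family behaved differently from Pdk1. Pdk3 was nearly level, at 35.8 to 39.7 FPKM. Pdk4, the kinase associated with fasting and fat oxidation, was 17.4 FPKM in cells labelled Ago2+/+ tunicamycin and 18.9 in Ago2-/- DMSO, 0.758 and 0.524 in Ago2+/+ thapsigargin and Ago2-/- tunicamycin, and listed at 0 in the remaining groups. Pdk1 made up 21.6% to 46.7% of the family sum.

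Aldoa, Pgk1 and Ldha put the 6 groups in the same order. From high to low it ran Ago2-/- thapsigargin, Ago2+/+ DMSO, Ago2-/- DMSO, Ago2+/+ tunicamycin, Ago2+/+ thapsigargin and Ago2-/- tunicamycin, all as labelled. The group labelled Ago2-/- thapsigargin was the highest of the 6 for 7 of the 10 genes, as it was for 14.8% of all loci. The group labelled Ago2-/- tunicamycin was the lowest for 6 of the 10, as it was for 19.6% of all loci. No gene of the 10 had its highest or lowest level in cells labelled Ago2+/+ DMSO.

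Because Aldoa, Pgk1 and Ldha shared one order and Pdk1 had the widest range, the sequence before a start of each is shown. The core letters bound by HIF-1, ACGTG and GCGTG, were searched on both strands in the 250 bases before every start of the RefSeq table (GRCm38.p6). All 10 genes matched that table, with 16 starts between them. ACGTG overlaps CACGTG, the E-box bound by MYC and related factors, so 1 stretch can count for both. At least 1 match was present at 12 of the 16 starts (75%), against 38.6% of the 32851 starts of all genes. By gene, all 10 had a match at 1 start or more, against 41.5% of 27025 genes. CACGTG was present at 1 of the 16 starts, one of Ldha, against 6.02% of all starts. The matching starts of Aldoa have overlapping windows that hold the same site, so that site counts more than once. The 10 genes also have more starts per gene than all genes do. All genes were not matched to the 10 for level or base content, and the shares were not tested. A match is a description of the letters and does not show binding. For each gene the start with the most matches was taken, and the 150 bases before it are written 5′ to 3′ on the gene's strand, with matches in capitals (on the other strand they read CACGT or CACGC).
Aldoa, minus strand, chr7:126799255-126799404: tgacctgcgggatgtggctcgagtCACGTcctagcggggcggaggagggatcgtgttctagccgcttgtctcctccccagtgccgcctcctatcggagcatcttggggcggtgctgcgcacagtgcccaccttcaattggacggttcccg
Pgk1, plus strand, chrX:106186950-106187099: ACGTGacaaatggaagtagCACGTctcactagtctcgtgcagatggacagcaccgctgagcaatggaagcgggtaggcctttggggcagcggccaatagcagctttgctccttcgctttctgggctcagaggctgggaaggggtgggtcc
Ldha, plus strand, chr7:46845654-46845803: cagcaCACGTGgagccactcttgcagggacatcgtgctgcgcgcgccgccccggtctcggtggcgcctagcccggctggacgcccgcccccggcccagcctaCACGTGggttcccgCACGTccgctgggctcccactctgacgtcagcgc
Pdk1, plus strand, chr2:71873074-71873223: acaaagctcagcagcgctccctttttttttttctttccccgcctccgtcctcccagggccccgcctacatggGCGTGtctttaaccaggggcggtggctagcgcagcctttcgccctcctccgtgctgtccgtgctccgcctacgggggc
The stretch of Ldha holds 5 matches, 4 of them in 2 copies of CACGTG. This RefSeq start lies 35 bases before the nearest transcript start of Ldha in GENCODE vM21, and the other RefSeq start of Ldha, which GENCODE shares, has 1 match and no CACGTG. That of Pgk1 holds 2 matches, and those of Aldoa and Pdk1 hold 1 each.

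In cells labelled Ago2+/+, levels under tunicamycin were close to those under DMSO for most of these genes. On the scale of log2(FPKM + 0.1), used for all differences below, 4 of the 10 were above their DMSO level and 6 below it, with a median difference of -0.14 (all loci, 0.01). None was at least 2-fold higher, against 9.61% of loci, and none was at least 2-fold lower, against 8.29%. Pfkl was the furthest from its DMSO level, at -0.95, followed by Hk1 at -0.64. Pkm stood highest above it, at 0.32.

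Thapsigargin in cells labelled Ago2+/+ came with lower levels of nearly all of them. The levels of 9 genes were below DMSO, with a median difference of -0.58 (all loci, 0.01). At least 2-fold lower were Aldoa (-1.09) and Pfkp (-1.04), that is 2 of 10 against 7.54% of loci. None was at least 2-fold higher, against 9.27%. Ldha (-0.93) and Pdk1 (-0.92) came close to the 2-fold line, while Hk2 (0.06) and Pfkl (-0.05) were at their DMSO levels.

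In cells labelled Ago2-/-, levels under tunicamycin were below those under DMSO for 8 of the genes. Pfkp (-1.30) and Aldoa (-1.08) were at least 2-fold lower than under DMSO, again 2 of 10, against 10.3% of loci, and Pkm was just short of that line at -1.00. None was at least 2-fold higher, against 11.6%. The median difference was -0.60 (all loci, 0). Pfkl, at 0.83, and Hk1, at 0.31, were the 2 genes above their DMSO level. The groups labelled Ago2-/- tunicamycin and Ago2+/+ thapsigargin were themselves alike, with a median absolute difference of 0.12 over all loci. Ddx3y was 24.7 and 23.3 FPKM in them and listed at 0 in the DMSO groups of either label. Whether the stressors set the lower levels was not tested.

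With thapsigargin in cells labelled Ago2-/-, levels were mostly higher than under DMSO. The median difference was 0.34 (all loci, -0.02), with 7 genes above and 3 below. Pfkl (1.13) was the 1 gene at least 2-fold higher, against 8.21% of loci, and none was at least 2-fold lower, against 9.81%. Hk1 (0.85), Ldha (0.67) and Pdk1 (0.58) came next. Pfkp (-0.34), Slc2a1 (-0.07) and Pkm (-0.00) were below or at the DMSO level.

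Between genotypes under DMSO, Pfkl and Hk1 differed the most and Ldha came next, at -0.32. The median difference of labelled Ago2-/- from Ago2+/+ was 0.01 (all loci, 0.01), with 5 genes on either side of 0. None was at least 2-fold higher (9.66% of loci) or lower (8.37% of loci). Pfkl (-0.87) and Hk1 (-0.77) were furthest below, while the other isozymes of the same steps, Pfkp (0.20) and Hk2 (0.16), were slightly above. Pkm (0.27) and Slc2a1 (0.26) were furthest above.

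Under tunicamycin cells labelled Ago2-/- had lower levels of 8 genes than that labelled Ago2+/+. Pfkp (-1.22) and Pkm (-1.05) were at least 2-fold lower, 2 of 10 against 9.88% of loci, and Aldoa was at -1.00, just short of it. None was at least 2-fold higher, against 11.6%. Pfkl, at 0.91, and Hk1, at 0.18, were above. The median was -0.50 (all loci, -0.00).

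Under thapsigargin all 10 genes were higher in cells labelled Ago2-/- than in that labelled Ago2+/+. The differences ran from 0.32 for Pfkl to 1.60 for Pdk1, with a median of 0.82 (all loci, -0.03). Pdk1, Ldha (1.28) and Aldoa (1.24) were at least 2-fold higher, 3 of 10 against 7.42% of loci. None was at least 2-fold lower, against 9.97%. This was the 1 comparison of the 7 in which all of the genes lay on the same side of 0. The groups compared also differed in sex-linked transcripts. Xist was 33.5 FPKM in that labelled Ago2-/- thapsigargin and 0.0102 in Ago2+/+ thapsigargin, while Ddx3y was listed at 0 and was 23.3. Ago2 itself was 20.7 and 17.0 FPKM, higher with the label Ago2-/-. Whether the genotype set the higher levels was not tested.

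**Figure D3:**
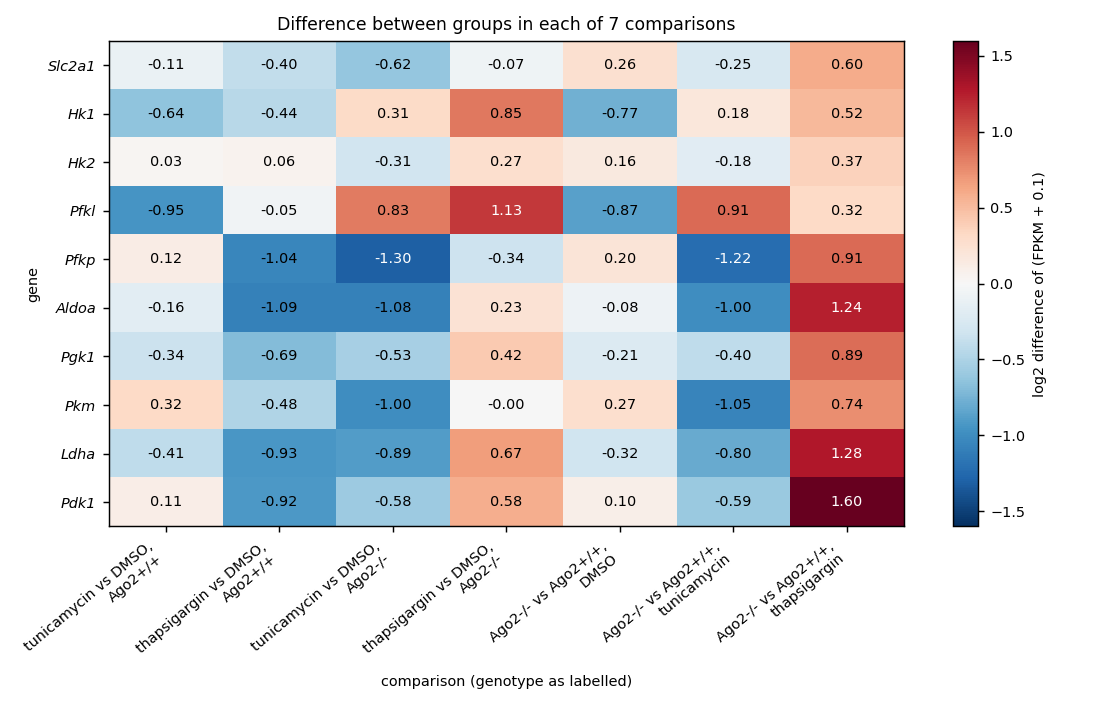
Differences of log2(FPKM + 0.1) between labelled groups for the 10 genes (rows) in 7 comparisons (columns), the first group named minus the second; red is higher, blue is lower, and no value has a replicate error. The last column is above 0 for all 10 genes, and Pfkl and Hk1 differ in sign from most other genes in several columns.

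The comparisons above share groups, so their values are not independent of each other. Set pair by pair, the groups fell into 3 close pairs that cut across the labels. The groups labelled Ago2+/+ tunicamycin and Ago2-/- DMSO differed by a root mean square of 0.15 over the 10 genes, Ago2+/+ thapsigargin and Ago2-/- tunicamycin by 0.20, and Ago2+/+ DMSO and Ago2-/- thapsigargin by 0.32. In the other 12 pairs it was 0.41 to 0.97. None of the 10 genes differed by at least 2-fold within a close pair, against 1.44%, 1.58% and 3.58% of all loci in the order given, compared with 16.8% to 22% of loci in the other pairs. All loci gave the same 3 pairs as the closest, with a median absolute difference of 0.09 to 0.17 against 0.36 to 0.47.

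Within the close pairs the largest difference was that of Pdk1, at 0.68 between the groups labelled Ago2+/+ DMSO and Ago2-/- thapsigargin and at 0.44 between Ago2+/+ thapsigargin and Ago2-/- tunicamycin. In the remaining close pair it was that of Slc2a1, at 0.37. Low Ago2 and Pfkl levels were in the pair of Ago2+/+ tunicamycin and Ago2-/- DMSO, and low Pfkp and Aldoa levels with Y-linked transcripts in the pair of Ago2+/+ thapsigargin and Ago2-/- tunicamycin. Whether the labels, the cells or the stressors set these levels cannot be told apart in the pooled values.

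**Figure D4:**
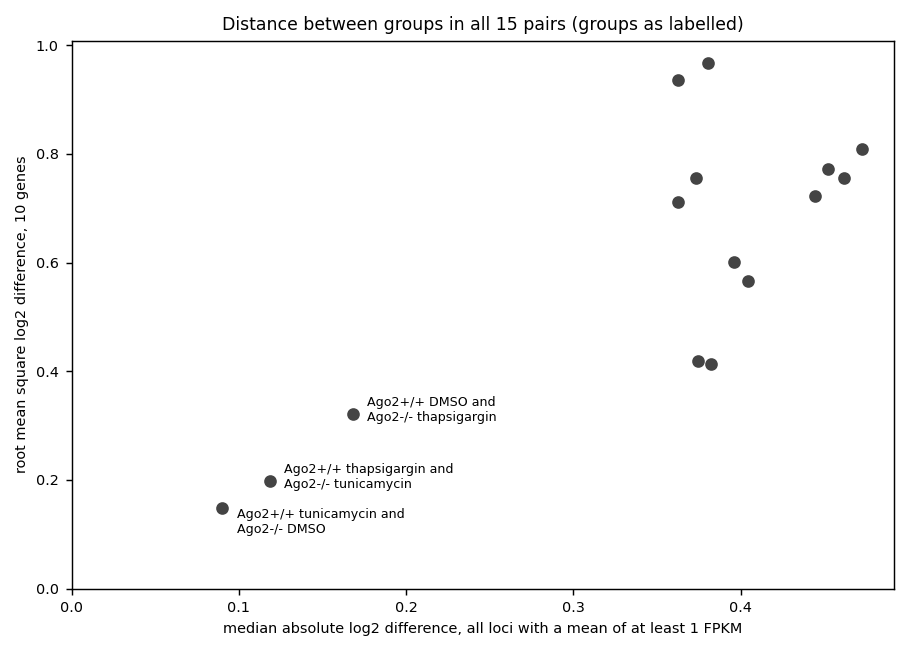
Each of the 15 pairs of labelled groups as 1 point, by the median absolute log2 difference over 11929 loci (x axis) and the root mean square log2 difference over the 10 genes (y axis). The 3 named pairs sit apart at the lower left, at 0.15 to 0.32 on the y axis, and the other 12 lie at 0.41 or above.

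The profiles of the 10 genes were also compared with each other after centring each on its mean over the 6 groups. Aldoa and Ldha were the most alike, with a root mean square difference of 0.17 (Pearson's r of 0.95 over 6 groups), and Pgk1 and Ldha had the highest correlation, at 0.99. Pfkl and Pfkp were the least alike, at 0.87 (r of -0.51). These points share their libraries and fall into the close pairs, so they are a description with few independent values. Among the 10293 loci that reached 1 FPKM in every group, the nearest to Pdk1 were Hapln4 (0.06), Socs1 (0.15) and Fam135a (0.15). Nearest to Ldha were Ldha-ps2 (0.07), by its name a pseudogene of Ldha, so that fragments of both may be confused, Hpcal1 (0.08) and Map2k3os (0.08). Nearest to Aldoa were Mrpl45 (0.04), Rock2 (0.07) and Man1a (0.09).

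The remaining enzymes of the chain did not all share one pattern. Gpi1, which converts glucose phosphate to fructose phosphate, was 138 to 268 FPKM and lowest in cells labelled Ago2+/+ thapsigargin (146) and Ago2-/- tunicamycin. Tpi1, which interconverts the products of aldolase, was instead low in Ago2+/+ tunicamycin (234) and Ago2-/- DMSO (248) and between 447 and 728 in the others. Tpi1 thus followed Pfkl. A processed copy of Tpi1 was listed at up to 67.3 FPKM.

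Eno1, the enolase of most tissues, was high in the groups where Tpi1 was low. It was 1474 and 1351 FPKM in cells labelled Ago2+/+ tunicamycin and Ago2-/- DMSO and 444 to 717 in the other 4. The ratio of Eno1 to Tpi1 was 6.30 and 5.45 in the former groups and between 0.986 and 1.18 elsewhere. Among those other 4 groups both genes had the same order, from Ago2-/- thapsigargin at the top to Ago2-/- tunicamycin. Eno1b, whose transcript is 99.5% identical to that of Eno1 over 1736 bases, was listed at 109 to 238 FPKM, so the division of fragments between both genes is uncertain.

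Eno3, the muscle enolase, was high in the same groups as Eno1, at 152 and 164 FPKM, and 13.1 in both Ago2+/+ thapsigargin and Ago2-/- tunicamycin. Eno2, the neuronal enolase, was low where Eno1 was high, at 1.10 and 0.802 FPKM against 6.41 to 7.54. Pgam1, which acts just before enolase, ranged from 143 to 306 FPKM. Gapdh, commonly used as a reference gene, ranged from 233 to 496 FPKM, a span of 1.09 on the log2 scale, although 77 near copies of its transcript are annotated and 1 of them, Gm7336, was listed at 265 FPKM in cells labelled Ago2+/+ tunicamycin and at 51.6 or less elsewhere.

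Lactate leaves the cell through monocarboxylate transporters. Slc16a1 (MCT1), the widely expressed one, was 48.8 to 56.7 FPKM in 4 groups and 29.5 and 28.4 in those labelled Ago2+/+ thapsigargin and Ago2-/- tunicamycin. Slc16a3 (MCT4), the exporter typical of glycolytic and hypoxic cells, was 14.7 and 18.2 FPKM in these same groups and at most 0.153 in the other 4. Where Ldha was lowest, MCT4 transcripts were thus the most abundant.

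Of genes that sense oxygen and glucose, the Hif1a locus, which also holds Snapc1, varied little, at 51.8 to 85.1 FPKM. Egln3, an oxygen-sensing prolyl hydroxylase and HIF target, was 14.4 and 15.5 FPKM in cells labelled Ago2+/+ tunicamycin and Ago2-/- DMSO but 1.10 and 1.24 in Ago2+/+ thapsigargin and Ago2-/- tunicamycin. Bnip3, a mitophagy receptor and HIF target, was highest at 72.1 FPKM in Ago2-/- thapsigargin and lowest at 15.0 in Ago2+/+ thapsigargin, the same extremes as Pdk1. Of the 13 HIF targets outside glycolysis that were looked up, Bnip3 included, most were highest in other groups, mainly Ago2-/- DMSO and Ago2-/- tunicamycin. Txnip, a glucose-responsive inhibitor of uptake, was 11.5 to 34.9 FPKM, and its relative Arrdc4 was 4.92 and 5.62 FPKM in Ago2+/+ thapsigargin and Ago2-/- tunicamycin and 2.74 or less elsewhere.

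In each of several branches of the pathway, 1 gene spanned at least 4-fold, as did 16.2% of all loci. It was 1 of 8 with a mean of at least 1 FPKM in the pentose phosphate pathway, of 6 in the hexosamine pathway and of 3 in gluconeogenesis. In other lists none did: 0 of 8 for glycogen, 0 of 7 for the pyruvate dehydrogenase complex, 0 of 5 PFKFB regulators and 0 of 2 for glycerol phosphate. Pgd, an enzyme of the pentose phosphate pathway, was 328 and 337 FPKM in cells labelled Ago2+/+ tunicamycin and Ago2-/- DMSO and 62.5 to 88.4 in the others. G6pc3, the ubiquitous glucose-6-phosphatase, was 4.51 and 2.33 FPKM in Ago2+/+ DMSO and Ago2-/- thapsigargin and 20.3 to 23.7 in the other 4. Gfpt2, which starts the hexosamine pathway, was 4.17 and 5.11 FPKM in Ago2+/+ thapsigargin and Ago2-/- tunicamycin and at most 0.171 elsewhere. Gfpt1 of the same pathway was more abundant, at 73.2 and 79.2 FPKM in these groups and 29.6 to 33.9 elsewhere.

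**Figure D5:**
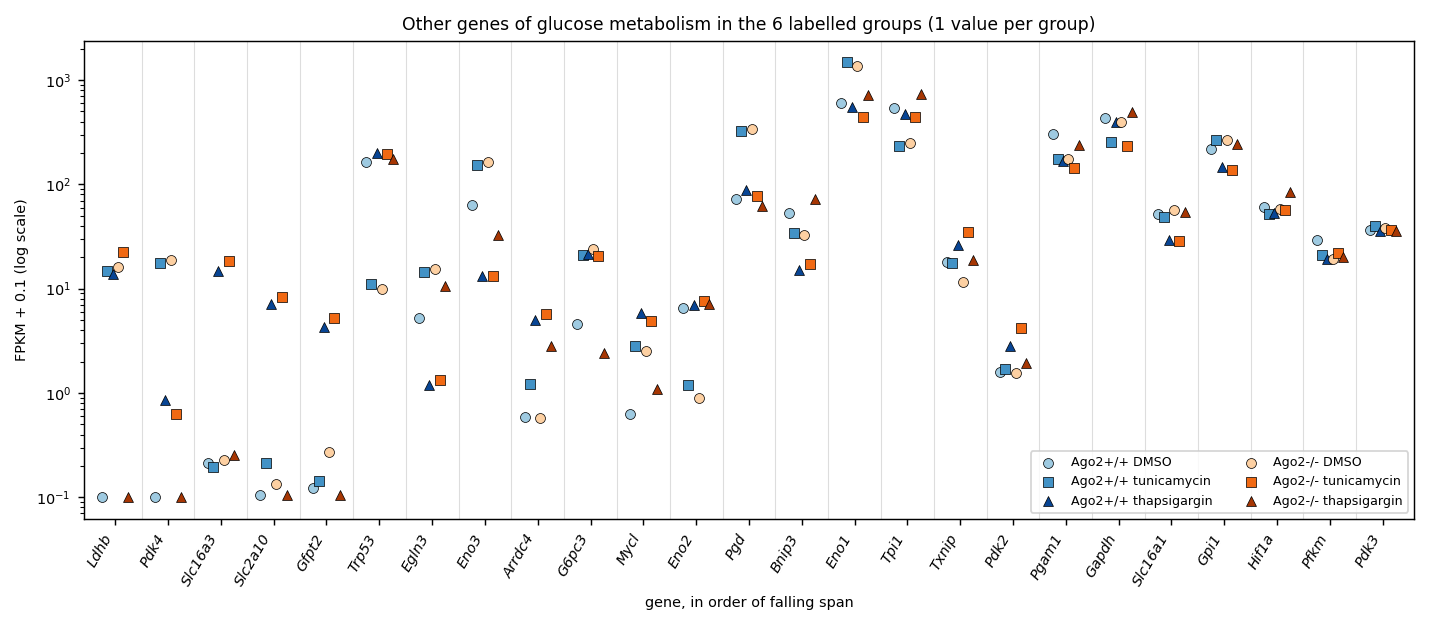
FPKM + 0.1 on a log axis of 25 other genes of glucose metabolism with a mean of at least 1 FPKM, 1 point per labelled group, in order of falling span. Ldhb and Pdk4 are listed at 0 in cells labelled Ago2+/+ DMSO and Ago2-/- thapsigargin (points at 0.1), and Slc16a3, Slc2a10 and Gfpt2 stand high in those labelled Ago2+/+ thapsigargin and Ago2-/- tunicamycin.

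Over the whole list of other genes of glucose metabolism, 88 of 121 had a mean of at least 1 FPKM. Of these, 44 spanned at least 2-fold (38% of all loci) and 14 at least 4-fold (16.2% of all loci). The median span was 1.00 (all loci, 0.80). In cells labelled Ago2+/+, 14 of the 88 were at least 2-fold higher (9.61% of all loci) and 4 lower (8.29%) under tunicamycin. Under thapsigargin 12 were higher (9.27%) and 7 lower (7.54%). In those labelled Ago2-/-, 14 were higher (11.6%) and 9 lower (10.3%) under tunicamycin, and 6 were higher (8.21%) and 12 lower (9.81%) under thapsigargin. Between labelled genotypes, 14 were higher in Ago2-/- (9.66%) and 5 lower (8.37%) under DMSO. Under tunicamycin 12 were higher (11.6%) and 11 lower (9.88%), and under thapsigargin 8 were higher (7.42%) and 11 lower (9.97%). Each percentage is the share of all loci in the same comparison and direction, and the counts were not tested against it.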

How the data were processed

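RNA was sequenced from 18 libraries of mouse embryonic fibroblasts. Per the submitters' processing notes the tools were FastQC 0.11.7, HISAT2 2.1.0, StringTie 1.3.4d and Cuffdiff 2.2.1 with build GRCm38 (the study's methods name an Ensembl annotation). The authors deposited 1 FPKM per locus and group, pooled by them over 3 libraries, for 51499 loci and all 15 pairs of groups. Their columns of fold change, test statistic, p and q were not used. Whether the libraries kept strand was not stated in what was read here. Low values were checked for the steps that whole fragments leave: between 26.5% and 44.5% were near such a step, taken as within 0.1 of it (20% without steps), so fragments could not be recovered and the depth stays unknown.

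Groups came from the titles. Those named DCR1 were read as Ago2+/+ from their source or genotype labels. These labels conflict for 4 libraries, not all of them titled DCR1. Of several loci with 1 symbol, that with the highest mean was used. Differences are log2(FPKM + 0.1). The background is every locus whose mean over the 6 groups reached 1 FPKM, and 2-fold is the line for counts. The code that counts folds was checked on simulated levels. Likeness is the root mean square difference of centred profiles. Near copies were sought in GENCODE vM21 transcripts with BLAST+ 2.17.0 (at least 95% identity over at least 300 bases), and promoters were taken from RefSeq. Python 3.11.15, pandas 2.3.3 and NumPy 2.4.6 were used. Genes named besides the 10 are those that complete the pathway and up to 15 others that spanned at least 4-fold. The genes and lists were chosen with earlier results of these data known.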

Additional observations from a re-analysis of the deposited data

Results flagged for a closer look

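None of the 10 genes was at least 2-fold away from DMSO in opposite directions in the labelled genotypes. Of the 10, 6 had opposite signs under tunicamycin and 6 under thapsigargin, with smaller differences. Among the other named genes, 9 were at least 2-fold away in opposite directions under the same stressor, counting only genes that were above 0 in all 4 groups compared and, in each genotype, at 1 FPKM or more under DMSO or under that stressor. The values below are the log2 change in the groups labelled Ago2-/- minus that in the groups labelled Ago2+/+. No share of all loci was computed beside these counts of opposite signs or directions, so whether they are unusual is not known. All of the 9 except Eno1 were named because they spanned at least 4-fold in these data, so their count is not independent of that choice. The differences were not tested, since each group has 1 value.

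Under tunicamycin the difference was -2.91 for Eno1, -4.91 for Eno3 and 5.52 for Eno2, the enolases. It was -4.31 for Pgd of the pentose phosphate pathway and -5.02 for Egln3, the prolyl hydroxylase. For Trp53, which encodes the tumour suppressor p53 and restrains glycolysis, it was 8.20, with 165 and 10.9 FPKM under DMSO and tunicamycin in the groups labelled Ago2+/+ against 9.79 and 195 in those labelled Ago2-/-. Under thapsigargin it was -5.50 for G6pc3, -4.41 for Mycl, a relative of Myc, and 2.97 for Bnip3. In each of these the group labelled Ago2-/- DMSO lay near that labelled Ago2+/+ tunicamycin, its close pair over all loci. A gene high or low in that pair against the other groups changes in opposite directions under tunicamycin. The close pair of Ago2+/+ DMSO and Ago2-/- thapsigargin does the same under thapsigargin. Whether the labels, the cells or the stressors set the opposite signs was not tested.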

How the results depend on the processing

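For the 7 comparisons, the count of the 10 genes past 2-fold and their median difference were recomputed under each alternative. A pseudocount of 1, no pseudocount and centring on the median of all loci left every count within 1.5 times and every median within 0.1. With a fold of 1.5 in place of 2, the counts were larger: under tunicamycin against DMSO 2 genes in Ago2+/+ and 6 in Ago2-/-, under thapsigargin 5 and 3, and between genotypes 2 (DMSO), 6 (tunicamycin) and 7 (thapsigargin), all as labelled, against 33.4% and 41.2%, 31.9% and 35.7%, and 33.9%, 40.2% and 32.6% of all loci in the same order. Leaving out Pkm, whose locus holds 2 genes, moved the median for thapsigargin in Ago2+/+ to -0.69 and the count between genotypes under tunicamycin to 1. Counting the second Aldoa locus as a member, an alternative chosen after seeing the data, moved that median to -0.48 and the count for thapsigargin in Ago2-/- to 2. With no level filter, 7.75% to 9.66% of all loci were past 2-fold instead of 16.8% to 22%, since most loci are then at or near 0. A pseudocount of 1 moved no span of the 10 genes by more than 0.1. The 6 isozyme shares recomputed in the group labelled Ago2+/+ DMSO could not change when loci with several genes were left out, because no isozyme lies in such a locus. No paired analysis was possible because each group has 1 pooled value, and for the same reason no replicate could be left out. The lack of replicate values and of depth limits every statement here to the values themselves.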
